A study of Homo sapiens with 2 samples.

Results

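Expression of the enzymes that set and remove methyl groups on histones and DNA was compared between L-428 cells with knock-down of PRAME and L-428 cells with a control vector. The genes were taken by their current symbols. A gene was included if its symbol begins with KDM, KMT, SETD, NSD, PRMT, EHMT, SUV39H, DNMT or TET and goes on with a digit or a letter, or if it is DOT1L or ASH1L. EZH1 and EZH2 were left out. In total 65 symbols were found, of 19775 genes with a probe set that carries 1 symbol. Of these, 60 belong to the families of methylation and demethylation enzymes, and the results below describe these 60. The other 5 fit the letters only. They are NSDHL, an enzyme of cholesterol synthesis, and the noncoding RNAs EHMT1-IT1, KDM7A-DT, KMT2E-AS1 and PRMT5-AS1. ASH1L was not analyzed here.

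L-428 is an established cell line from Hodgkin lymphoma (HL). PRAME is a cancer/testis antigen that binds the retinoic acid receptor and represses its target genes. The study asked which genes differ after knock-down of PRAME, and the RNA of each condition was hybridized to 1 Affymetrix HG_U133PLUS2.0 array. The control cells carried pcDNA6.2-GW/EmGFP-miR-neg and the knock-down cells pcDNA6.2-GW/EmGFP-miR-PRAME, which produces an artificial microRNA against PRAME. Both vectors also encode the green fluorescent protein EmGFP, and stable transfectants were selected with blasticidin according to the study's methods. Neither the labels nor the methods say whether the cells were a pool or 1 clone, and they name no further treatment of the cells on the arrays. The general description of the series names another HL cell line, L-540, and another type of array, whereas the sample labels name L-428.

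Histone methyltransferases transfer methyl groups from S-adenosylmethionine to lysine or arginine residues, and most lysine methyltransferases do so with a SET domain. Lysine methylation is removed by the flavin-dependent LSD enzymes and by the JmjC enzymes, which need iron and 2-oxoglutarate. DNMT enzymes methylate cytosines in DNA, and TET enzymes oxidize the methyl group as the first step of its removal. Depending on the residue, histone methylation marks active genes (H3K4, H3K36 and H3K79, that is lysines 4, 36 and 79 of histone H3) or silent chromatin (H3K9 and H4K20). Several of these enzymes are mutated or rearranged in leukemia and lymphoma, for instance KMT2A, KMT2D, NSD2, DNMT3A and TET2.

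The values were signal intensities from the MAS5 algorithm on a linear scale, which had been scaled to one level on both arrays (mean of 499.95 on each array after trimming 2% of the values at both ends). For each probe set, the log2 signals of both arrays were averaged, and probe sets below the median of these averages (a signal of 97.7) were left out. The median signal was 91.9 on the control and 109.9 on the knock-down array. The log2 ratio of knock-down over control cells was centered on the median of the 27307 probe sets kept. For each gene, the value of the kept probe set with the strongest mean signal was used. This gave values for 54 of the 60 enzymes and for 11794 genes in all. There was 1 array per condition and thus no replicate, no test and no measure of the spread between cultures. Differences are described by thresholds of 1.5-fold and 2-fold, and different probe sets of one gene, whose log2 ratios had a pooled SD of 0.33 over all genes, show how far a value depends on the probes. Signals were compared only within a probe set, since they depend on its probes, and do not order genes by transcript level. PRAME itself had signals of 2115 in control and 1251 in knock-down cells (ratio of 0.573 after centering). The HL marker TNFRSF8, which encodes CD30, had signals of 1893 and 1667 and the HL chemokine CCL17 signals of 6089.7 and 5537. None of the probe sets for the T cell genes CD3D, CD3E, CD3G and CD8A and the myeloid genes CD14, LYZ, CSF1R and MPO reached the filter. Of 7 measured HL markers, FUT4 and CD40 were at least 1.5-fold lower in their strongest probe sets, and the median log2 ratio of the 7 was -0.18. The kept probe sets of both genes went in opposite directions, from -0.63 to 0.36 for FUT4 and from -0.74 to 0.66 for CD40. The study reported CD40 as lower after knock-down, both on the arrays and by quantitative RT-PCR. Summed over the strongest probe set of each of the 7, the signals without centering were 29407 in control and 29521 in knock-down cells. Probe sets with high signals, such as that of FSCN1 with 11028 and 11799, weigh most in this sum. The log2 ratio was below 0 for 4 of the 7 and above 0 for 3. Of the B cell genes, CD79A had signals of 178 and 332, MS4A1 had 95.9 and 135, BLK had 297 and 220.4, and CD79B was below the filter. The fibroblast genes COL1A1 and COL1A2 had 1199 and 790.3 (COL1A1) and 53.4 and 184 (COL1A2). The part of such differences in the results for the enzymes was not tested.

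Most methylation enzymes had similar signals in knock-down and control cells. In RNA from a whole culture, fewer cells that express a gene cannot be told apart from less RNA per cell. Of the 54 measured enzymes, 1 was higher by 1.5-fold or more after knock-down and 0 were at least 1.5-fold lower. Over all genes measured, 7.54% were at least 1.5-fold higher and 5.42% at least 1.5-fold lower. No enzyme reached 2-fold in either direction, and 1.73% of all genes were at least 2-fold higher and 0.729% at least 2-fold lower. The log2 ratios of the enzymes lay between -0.54 for TET3 and 0.68 for KDM1A. Their SD was 0.29, and that of all genes was 0.41.

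The median log2 ratio of the 54 enzymes was -0.12, and that of all genes was -0.0069. The log2 ratio was below 0 for 36 of the 54 enzymes (66.7%) and for 51.0% of all genes. Counted by kept probe set, it was below 0 for 55.5% of those of the enzymes and for 52.0% of all with 1 symbol. The log2 ratio depended on the signal on these arrays. Over the 27307 kept probe sets, its median was 0.16 in the lowest of 4 equal bins of signal and -0.057 in the highest. The enzymes had a median signal of 1014.5 where all genes had 793. Among genes above the median signal of the genes, the median log2 ratio was -0.11 for 33 enzymes and -0.065 for all 5897 genes. Of these, 63.6% of the enzymes and 59.7% of the genes were below 0. None of these 33 enzymes was past 1.5-fold, where 1.87% of the 5897 genes were higher and 4.75% lower. After subtraction of the trend with signal by a loess curve, the median of the 54 enzymes was -0.07 (all genes 0.014).

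**Figure D1:**
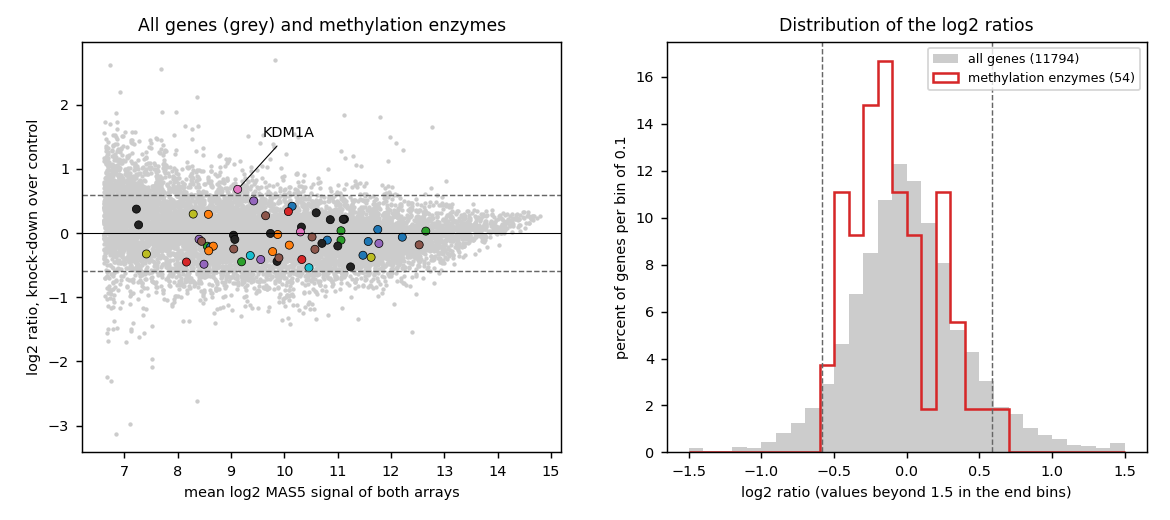
Left, log2 ratio (PRAME knock-down over control) plotted on the mean log2 MAS5 signal for 11794 genes (grey) and the 54 measured methylation enzymes (coloured by role), 1 array per condition, with dashed lines at 1.5-fold. Right, percent of genes in bins of the log2 ratio for all genes (grey) and the enzymes (red line). All enzymes but KDM1A lie between the dashed lines.

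The histone demethylase KDM1A, also known as LSD1, was the enzyme past 1.5-fold. KDM1A removes methyl groups from H3K4 as part of the CoREST repressor complex. Probe set 212348_s_at had signals of 434.0 in control and 718 in knock-down cells, a log2 ratio of 0.68 or 1.60-fold. KDM1A was measured by this probe set only, so no other probe set of the gene could be set against it. It remained at or above 1.5-fold in each alternative processing that could measure it, with log2 ratios between 0.59 without a filter and 0.74 with a stricter filter. The 50 measured genes next to KDM1A on chromosome 1 had a median log2 ratio of 0.12. KDM1B, the second LSD demethylase, had signals of 1234 and 1288 in 227021_at (log2 ratio 0.017). Its other probe set, 1553150_at, had signals of 643 and 423 (log2 ratio -0.65). KDM1B thus showed nearly equal signals in one probe set and a lower signal in the other. Of the listed partners of KDM1A in the CoREST complex, 5 were measured and none was past 1.5-fold in its strongest probe set. Over all genes, 5.42% were lower by this much and 7.54% higher. The scaffold RCOR1 had signals of 1169 and 1211 (log2 ratio 0.0059), and the largest difference by strongest probe set was that of HMG20B with 819 and 721 (log2 ratio -0.23). Over all kept probe sets, the values ranged from -0.31 to 0.71 for ZMYM2 and from -0.48 to 0.23 for PHF21A.

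The H4K20 methyltransferases KMT5B and KMT5C had lower signals in the knock-down cells, below 1.5-fold. KMT5B adds further methyl groups to H4K20 that already carries one. All 3 kept probe sets of KMT5B were lower. Its signals were 1459.5 in control and 1131 in knock-down cells for 218242_s_at (log2 ratio -0.41). They were 779 and 542 for 222759_at (log2 ratio -0.57), and 202 and 160.3 for 222566_at (log2 ratio -0.38). The 3 log2 ratios of KMT5B thus lay within 0.19 of each other. KMT5C, which has the same activity, had signals of 330.1 and 249 in its only kept probe set (log2 ratio -0.45). KMT5A, which adds the first methyl group, had signals of 946 and 1230.0 (log2 ratio 0.33), but its 4 probe sets ranged from -0.39 to 0.33 and 2 of them were below 0. The median of the 3 genes was -0.41, and it was 0.019 with the stricter filter, which measured 2 of them.

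The promoters of KDM1A and KMT5B are shown because KDM1A was the only enzyme past 1.5-fold and KMT5B had 3 probe sets that were lower by similar ratios. The sequences are those of RefSeq for GRCh38.p14 and run from 250 bases before to 50 bases after the start of the gene, 5′ to 3′ on its own strand. Capitals mark the GC box GGGCGG on either strand (CCGCCC on the other), the motif bound by SP family factors. The promoter of KDM1A lies at chr1:23019218-23019517 on the plus strand and that of KMT5B at chr11:68213599-68213898 on the minus strand.
KDM1A: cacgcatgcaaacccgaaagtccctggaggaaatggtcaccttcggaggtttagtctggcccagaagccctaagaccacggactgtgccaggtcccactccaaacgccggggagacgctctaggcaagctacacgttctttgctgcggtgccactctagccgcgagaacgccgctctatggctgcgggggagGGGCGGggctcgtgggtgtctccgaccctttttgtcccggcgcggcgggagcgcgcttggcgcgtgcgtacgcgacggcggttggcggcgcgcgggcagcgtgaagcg
KMT5B: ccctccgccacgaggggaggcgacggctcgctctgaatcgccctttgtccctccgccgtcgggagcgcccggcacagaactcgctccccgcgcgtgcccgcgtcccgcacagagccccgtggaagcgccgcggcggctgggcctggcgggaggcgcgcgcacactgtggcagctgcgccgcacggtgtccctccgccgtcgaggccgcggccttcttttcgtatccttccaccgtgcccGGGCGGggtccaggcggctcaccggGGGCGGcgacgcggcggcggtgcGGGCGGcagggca
The KDM1A promoter held 36 CpG dinucleotides and 1 GC box, and the KMT5B promoter 49 CpG dinucleotides and 3 GC boxes. CpG dinucleotides are the sites that DNMT and TET enzymes act on. Promoters of 300 bases were found for 51 of the 54 measured enzymes. They held a median of 29 CpG dinucleotides, from 3 for DNMT3B to 63 for NSD2. The promoters of all 9602 measured genes with such a sequence held a median of 26, and those of all 27305 genes a median of 14. A GC box was present in 72.5% of the enzyme promoters, in 68.7% of those of all measured genes and in 44.6% of all promoters.

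PRAME is known to bind the retinoic acid receptor. The promoters were therefore also searched on both strands for exact copies of AGGTCA, a motif that retinoic acid receptors and other nuclear receptors bind. This motif was present in 3 of the 51 enzyme promoters (5.88%), in 9.82% of those of all measured genes and in 13.9% of all promoters of 300 bases. A direct repeat of AGGTCA with 5 bases between both copies was present in 0 of the 51 enzyme promoters. It was present in 0 of the 9602 promoters of measured genes and in 1 of all 27305 promoters. With 2 bases between the copies, the repeat was present in none of these. A repeat this rare cannot set the enzymes apart from other genes, and inexact copies were not searched. The 3 matches are shown with 12 bases on each side, and capitals mark the motif, which reads TGACCT where it is on the opposite strand. They lie at chrX:44873077-44873106 for KDM6A, at chr19:49677077-49677106 for PRMT1 and at chr5:56909452-56909481 for SETD9, all on the plus strand of GRCh38.p14.
KDM6A: gtgagtcaacaaAGGTCAcgtgaggcgtgc
PRMT1: ttggcaaaccccTGACCTatgatggacgta
SETD9: ttcagagaggtgAGGTCAggaaaggggaag
The motif begins 99 bases before the start of KDM6A, 182 bases before that of PRMT1 and 132 bases before that of SETD9. The log2 ratios of these genes were 0.31, -0.18 and -0.41, so they did not share a direction.

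**Figure D2:**
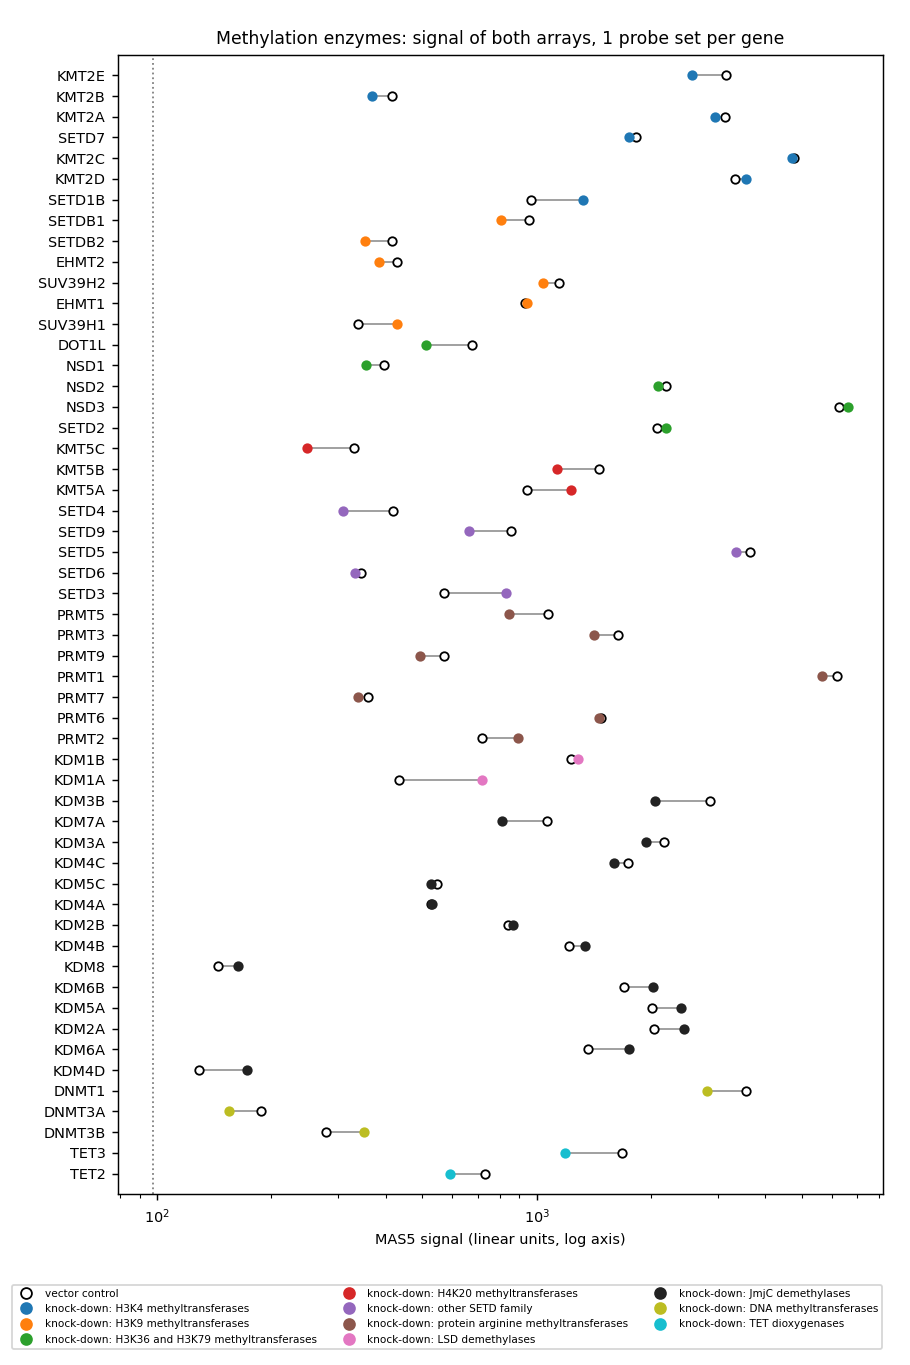
MAS5 signal (log axis) of the representative probe set of each measured methylation enzyme in the vector control (open points) and the PRAME knock-down cells (filled points, coloured by role), 1 array per condition. The dotted line is the filter at a signal of 97.7. KDM1A, from 434.0 to 718, shows the widest gap to the right, and TET3 and KDM3B the widest gaps to the left.

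H3K4 methyltransferases (the KMT2 and SETD1 families and SETD7) were close in both conditions. The log2 ratio was below 0 in 5 of 7 measured genes (all genes 51.0%), with a median of -0.11. SETD1B, the catalytic subunit of a COMPASS complex, had signals of 965 in control and 1329 in knock-down cells (log2 ratio 0.42, 1 probe set). KMT2E, a family member without known methyltransferase activity, had signals of 3157 and 2561 in 226100_at (log2 ratio -0.35). Its other probe sets had log2 ratios of -0.39 and 0.053. KMT2A, the MLL gene that is rearranged in acute leukemia, was measured by 9 kept probe sets, more than any other enzyme. The strongest KMT2A probe set, 226981_at, had signals of 3139 and 2955 (log2 ratio -0.13). The lowest log2 ratio of KMT2A was -0.71 for 212076_at, with signals of 2219.6 and 1403, and the highest was 0.53 for 1565436_s_at, with 286 and 426. Of the 9 KMT2A probe sets, 6 were below 0 and 3 above. The remaining genes were KMT2B (log2 ratio -0.22), SETD7 (-0.11), KMT2C (-0.065) and KMT2D (0.055). The 6 kept probe sets of KMT2C ranged from -0.31 to 0.55, with 3 below 0 and 3 above. Those of KMT2D ranged from -0.30 to 0.13. SETD1A was below the filter.

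The partners of these enzymes in the COMPASS complexes were also close. Of 12 listed genes all were measured, with a median log2 ratio of 0.06. Among them 1 (8.33%) was at least 1.5-fold lower and 0 were higher, where 5.42% of all genes were lower and 7.54% higher. The adaptor PAXIP1 had signals of 2525 and 1723 and was 1.51-fold lower, but it was below 1.5-fold without centering, after quantile normalization, after loess and with an offset of 64. The core subunits ASH2L (log2 ratio -0.025), RBBP5 (0.18) and DPY30 (0.10) had similar signals in both conditions. PSIP1 had a log2 ratio of -0.024 in its strongest probe set and of -1.05 in its lowest. WDR5, a further core subunit, had signals of 927 and 968 in its strongest probe set (log2 ratio 0.018), but a log2 ratio of -1.35 in its other kept probe set.

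H3K9 methyltransferases, which set the mark of heterochromatin, were below 1.5-fold in all 6 measured genes. The median log2 ratio was -0.20, with 5 genes (83.3%) below 0, where 51.0% of all genes were. The median was 0.0093 when the median over the probe sets of each gene was taken. SETDB1 had signals of 957 in control and 807 in knock-down cells for 203155_at (log2 ratio -0.29), and 189.8 and 213 for 214197_s_at (log2 ratio 0.12). SUV39H1 had signals of 339.3 and 428.3 (log2 ratio 0.29, 1 probe set). The probe sets of EHMT2, which encodes the H3K9 methyltransferase G9a, went in opposite directions. The strongest EHMT2 probe set, 202326_at, had signals of 429.6 and 384.5 (log2 ratio -0.20). The signals of 207484_s_at were 121 and 250.1 (log2 ratio 1.01, and 0.73 with an offset of 64). A further EHMT2 probe set, 229079_at, was below the filter with 22.3 and 87.0. The remaining genes were SETDB2 (log2 ratio -0.28), SUV39H2 (-0.19) and EHMT1 (-0.023). Of the 3 kept probe sets of EHMT1, 2 were above 0, up to 0.51. Of those of SETDB2, 1 was above 0 (0.34) and 2 were below, and both of SUV39H2 were below 0. EHMT1 lies near the end of chromosome 9, where the 26 neighbouring genes had a median log2 ratio of 0.029. Of 9 listed partners and readers of H3K9 methylation, 0 were past 1.5-fold (median 0.073), where 5.42% of all genes were lower and 7.54% higher. By strongest probe set, the largest difference was found for ATF7IP, a partner of SETDB1, with signals of 1829.5 and 2675 (log2 ratio 0.50). ATF7IP was past 1.5-fold after quantile normalization and after loess. WIZ, a partner of EHMT1 and EHMT2, had a log2 ratio of -0.29 in its strongest probe set and values from -2.08 to 0.23 over its 3 kept probe sets.

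Among the methyltransferases for H3K36 and H3K79, NSD2 had the lowest log2 ratio of a single kept probe set. NSD2 sets the dimethyl mark on H3K36 and is overexpressed by a translocation in multiple myeloma. Of its 6 kept probe sets, 5 were below 0. The signals of NSD2 were 415 in control and 213 in the knock-down cells for 223472_at (log2 ratio -1.01). They were 1173 and 812 for 209052_s_at (log2 ratio -0.58) and 505 and 352 for 222777_s_at (log2 ratio -0.56). The strongest NSD2 probe set, 209054_s_at, had nearly equal signals of 2187 and 2089 (log2 ratio -0.11), as had 222778_s_at with 486 and 503 (0.0045). The difference of NSD2 thus depended on the probe set. DOT1L, the H3K79 methyltransferase, was lower in both kept probe sets, with signals of 675 and 510.2 for 226201_at (log2 ratio -0.45) and 509 and 441 for 231297_at (log2 ratio -0.25). NSD1, an H3K36 methyltransferase, had signals of 397 and 356 (log2 ratio -0.21), and its other kept probe sets had log2 ratios of -0.15 and -0.14. A further NSD1 probe set, 235760_at, was below the filter with 114 and 12.8. NSD1 lies on chromosome 5 as KDM3B does, and the log2 ratios of its 50 measured neighbours had a median of -0.24. NSD3 (log2 ratio 0.03) and SETD2 (0.035), the enzyme for trimethylation of H3K36, were the remaining genes. Of the 6 kept NSD3 probe sets, 5 were above 0, up to 0.41. The median of the 5 genes was -0.11, and 0.017 with the stricter filter. Of 4 DOT1L partners, 0 were past 1.5-fold, where 5.42% of all genes were lower and 7.54% higher. By strongest probe set, MLLT1 was lowest at signals of 1715 and 1530.5 (log2 ratio -0.21). The 6 kept probe sets of MLLT10 ranged from -0.46 to 0.48.

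Other members of the SETD family included a gene with a higher signal in both probe sets. SETD3, an actin histidine methyltransferase, had signals of 569 in control and 830.0 in knock-down cells for 212465_at (log2 ratio 0.50), and 120 and 181 for 229940_at (log2 ratio 0.55). Both SETD3 values are just below 1.5-fold, which is 0.585 on the log2 scale. SETD4 was lower in both kept probe sets, with 419 and 309 for 213989_x_at (log2 ratio -0.49) and 237 and 194 for 219482_at (-0.33). The 50 measured genes next to SETD4 on chromosome 21 had a median log2 ratio of -0.24. SETD9 (log2 ratio -0.41), SETD5 (-0.16) and SETD6 (-0.097) were the remaining genes. The 5 probe sets of SETD5 ranged from -0.16 to 0.82, and 2 of them were at least 1.5-fold higher. These were 222575_at with signals of 308 and 560.2, and 1569105_at with 514 and 812. The SETD5 probe set with the highest signal had 3646 and 3360.3.

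Protein arginine methyltransferases had log2 ratios below 0 in 6 of 7 measured genes (all genes 51.0%), with a median of -0.18. PRMT5, the main enzyme for symmetric dimethylarginine, had signals of 1074 in control and 847 in knock-down cells for 217786_at (log2 ratio -0.39). Its other probe sets had log2 ratios of -0.19 and 0.23. The exception in the group was PRMT2, with signals of 719 and 894.5 (log2 ratio 0.27), but its 5 kept probe sets ranged from -0.47 to 0.27. PRMT1, the main enzyme for asymmetric dimethylarginine, had signals of 6201 and 5630.1 (log2 ratio -0.18). PRMT3 (-0.25), PRMT9 (-0.25), PRMT7 (-0.13) and PRMT6 (-0.062) followed. PRMT8 was below the filter. Of 5 listed partners of PRMT5 and PRMT1, 0 were past 1.5-fold (median 0.051), where 5.42% of all genes were lower and 7.54% higher. By strongest probe set, the kinase RIOK1 was lowest with signals of 1767 and 1437 (log2 ratio -0.34). WDR77, the obligate partner of PRMT5, was highest with 368 and 480 (0.34), but its other kept probe set had a log2 ratio of -0.39.

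JmjC demethylases were the largest group, and their log2 ratios went in both directions. Of 14 measured genes, 7 were below 0 and 7 above, with a median of 0.043. The median was -0.037 without a filter and between 0.029 and 0.19 under the other alternatives. KDM3B, an H3K9 demethylase, was lower in both probe sets. Its signals were 2863 in control and 2049 in knock-down cells for 210878_s_at (log2 ratio -0.53), and 2562 and 2018 for 201643_x_at (log2 ratio -0.39). KDM3B lies on chromosome 5, and the 50 measured genes next to it had a median log2 ratio of -0.29. The part of this neighbourhood in the KDM3B value was not tested. KDM7A, a demethylase for H3K9 and H3K27, was lower in both probe sets as well. Its signals were 1068 and 811 for 221778_at (log2 ratio -0.44), and 378 and 257 for 225142_at (log2 ratio -0.60).

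The H3K4 demethylase KDM5A showed the widest range of the enzymes, with log2 ratios over 5 probe sets that spanned 1.48. The strongest KDM5A probe set, 202040_s_at, had signals of 2012 and 2407 (log2 ratio 0.21). The extremes were 226367_at with 124.7 and 240.2 (log2 ratio 0.90) and 230226_s_at with 1271 and 878 (log2 ratio -0.58). KDM8 was higher in both kept probe sets but to a different extent. Its signals were 145 and 163 for 220070_at (log2 ratio 0.13), and 67.1 and 209 for 237229_at (log2 ratio 1.59). The control signal of the latter is below the filter value of 97.7, and its log2 ratio was 1.02 with an offset of 64. The H3K27 demethylase KDM6B was above 0 in all 5 probe sets, from 0.043 to 0.31, and KDM6A in 3 of 4, from -0.036 to 0.41. By strongest probe set, the log2 ratios of the other JmjC genes lay between -0.20 for KDM3A and 0.37 for KDM4D. These were KDM2A (0.22), KDM4B (0.092), KDM2B (-0.0069), KDM4A (-0.035), KDM5C (-0.10) and KDM4C (-0.16). Further kept probe sets reached 0.63 for KDM4C, 0.55 for KDM5C and 0.48 for KDM4A. Those of KDM4B went down to -0.26 and those of KDM2A to -0.094. KDM5B and the Y-linked KDM5D were below the filter.

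**Figure D3:**
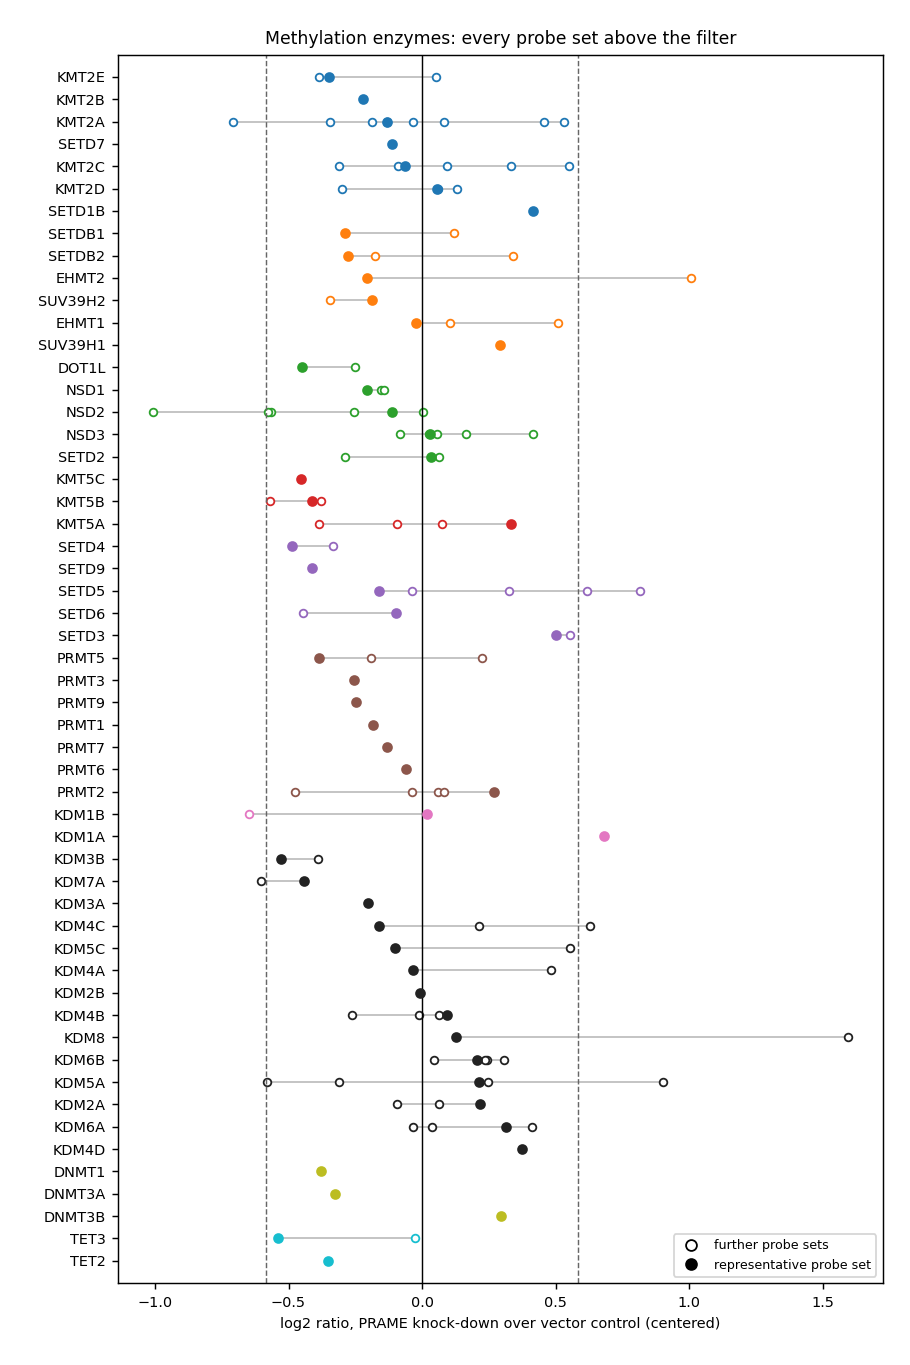
Log2 ratio (knock-down over control cells) of every kept probe set of the 54 measured methylation enzymes, 1 array per condition, coloured by role. Filled points are the probe sets with the highest mean signal, open points the further probe sets, and dashed lines stand at 1.5-fold. The widest ranges are those of KDM5A, KDM8, KMT2A, EHMT2 and NSD2.

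The DNA methyltransferases DNMT1 and DNMT3A had lower signals after knock-down, by less than 1.5-fold, and DNMT3B a higher one. DNMT1, which maintains methylation after replication, had signals of 3551 in control and 2817 in knock-down cells (log2 ratio -0.38, 1 probe set). DNMT3A, which sets new methylation, had signals of 188 and 154 in its kept probe set (log2 ratio -0.33). DNMT3B, the second enzyme for new methylation, had signals of 278 and 352 (log2 ratio 0.29, 1 probe set). DNMT3L was below the filter. The TET dioxygenases had log2 ratios below 0 in both measured genes (all genes 51.0%). TET3 had signals of 1674 and 1187 for 235542_at (log2 ratio -0.54), and 347 and 352 for 214754_at (-0.025). TET2 had signals of 731 and 591 in its kept probe set (log2 ratio -0.35), and TET1 was below the filter. Of 9 measured partners and readers of DNA methylation, 0 were past 1.5-fold (median 0.034), where 5.42% of all genes were lower and 7.54% higher. UHRF1, which brings DNMT1 to replicated DNA, had signals of 6446 and 6809 (log2 ratio 0.034). The methyl-CpG binding factor ZBTB33, also known as Kaiso, was lowest, with signals of 3619 and 2507 (log2 ratio -0.57) and a log2 ratio of -0.57 in its second probe set too. Single kept probe sets past 1.5-fold were found for MBD3, with values from -1.505 to 0.32 over 3 probe sets, and HELLS, with values from -0.34 to 0.62 over 4.

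Several metabolic enzymes supply the methyl donor and the 2-oxoglutarate for these reactions. Of 11 measured genes on this list, 1 (9.09%) was at least 1.5-fold higher and 0 were lower, with a median log2 ratio of -0.086. Over all genes measured, 7.54% were higher and 5.42% lower. IDH1, which makes 2-oxoglutarate in the cytosol, had signals of 2632 in control and 5884 in knock-down cells for 1555037_a_at, which is 2.17-fold higher. The 3 IDH1 probe sets ranged from -0.14 to 1.12, and the median over them was below 1.5-fold. Single probe sets past 1.5-fold were also found for IDH2 (up to 0.60) and IDH3A (down to -0.75). MAT2A, which makes S-adenosylmethionine, had signals of 2797 and 3398 (log2 ratio 0.24), and MTAP had 824 and 589 (log2 ratio -0.53, with 5 probe sets up to 0.33).

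**Figure D4:**
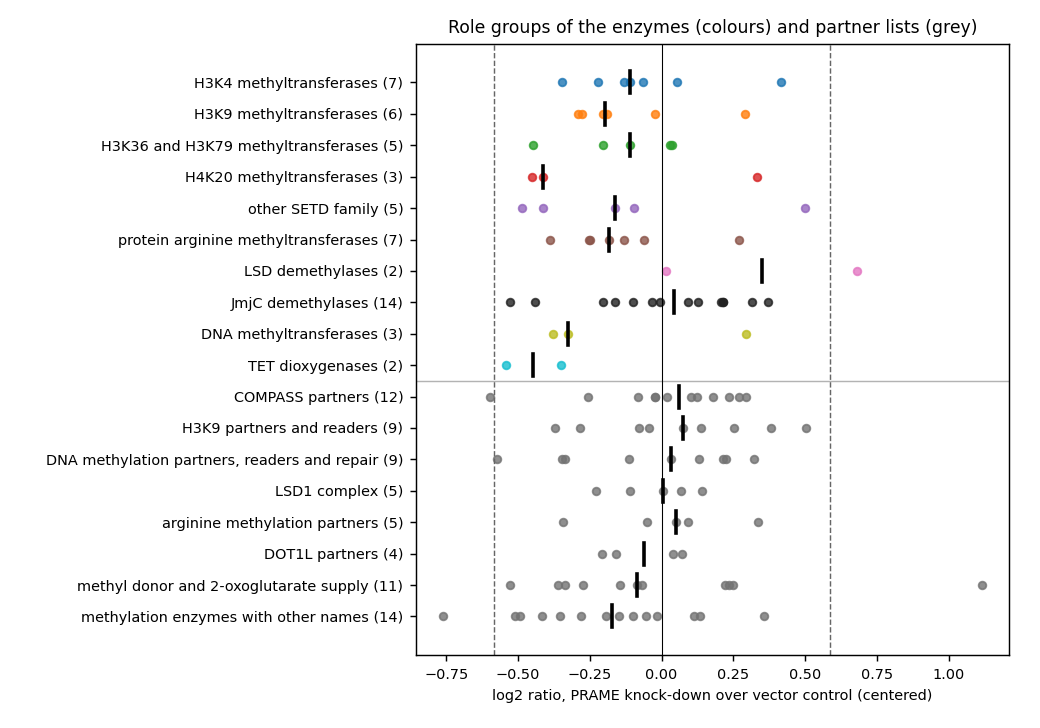
Log2 ratio (knock-down over control cells) of the genes in each role group of the methylation enzymes (coloured points, number of measured genes in brackets) and of each list of partners and suppliers (grey points), 1 array per condition. Black bars are medians and dashed lines stand at 1.5-fold. KDM1A is the enzyme beyond the lines in the role groups, and PAXIP1, IDH1 and SETMAR are beyond them in the lists.

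Counted by probe set, the enzymes showed more differences than counted by gene. Of 137 kept probe sets of the enzymes, 7 (5.11%) were at least 1.5-fold higher and 4 (2.92%) at least 1.5-fold lower. Of all kept probe sets with 1 symbol, 7.38% were higher and 6.54% lower. The higher probe sets belonged to KDM1A, EHMT2, KDM4C, KDM5A, KDM8 and SETD5 (2 probe sets), and the lower to KDM1B, KDM7A, KMT2A and NSD2. At 2-fold, 2 were higher (EHMT2 and KDM8) and 1 was lower (NSD2), where 1.52% of all kept probe sets were higher and 0.983% lower. Further 45 probe sets of the enzymes were below the filter.

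Of the 35 enzymes with at least 2 kept probe sets, 9 had all of them below 0 and 3 had all of them above 0. These 12 were 34.3% of the 35 enzymes, whereas 49.5% of 5840 genes with at least 2 kept probe sets had all of them on one side. The enzymes had a median of 3 such probe sets and all these genes a median of 2. Those below 0 were DOT1L, KDM3B, KDM7A, KMT5B, NSD1, SETD4, SETD6, SUV39H2 and TET3, and those above 0 were KDM6B, KDM8 and SETD3. In none of the 35 enzymes were all probe sets past 1.5-fold in one direction, as was the case in 54 (lower) and 52 (higher) of the 5840 genes. The probe sets of the remaining 23 enzymes differed in sign. Among enzymes with exactly 2 kept probe sets, both had the same sign in 64.3%, and among all genes with 2 kept probe sets in 61.6%. With exactly 3 kept probe sets, all had the same sign in 22.2% of 9 enzymes and in 44.0% of 1557 genes. The log2 ratios of one gene spanned more than 1 in 5 of the 35 enzymes (14.3%) and in 8.32% of the 5840 genes. The pooled SD between probe sets of one gene was 0.33 for the enzymes, as for all genes. The log2 ratio was within 0.25 of 0 for 29 of the 54 enzymes (53.7%) and for 53.2% of all genes.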

How the data were processed

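RNA from L-428 cells with control vector and with PRAME knock-down vector was hybridized to 1 array each. The authors processed the arrays with MAS5 in Affymetrix Expression Console 1.1 and deposited signal intensities on a linear scale. No genome build is given in the sources used here. These intensities were log2 transformed with no offset and subtracted (knock-down minus control). The 62 control probe sets were left out, probe sets at or above the median mean log2 signal were kept, and the log2 ratios were centered by subtracting 0.045. Genes came from the platform annotation (41097 of 54675 probe sets with 1 symbol), updated through RefSeq for GRCh38.p14, where 41043 were found. Promoters are from RefSeq.

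With 1 array per condition no spread or p-value can be given, and precision is limited by this number of arrays. The enzymes, their role groups and the lists of partners were chosen with earlier results of these data known. Both signals are given for enzymes past 1.5-fold, for the 2 with the largest difference in each role group and for those whose probe sets span over 1 on the log2 scale (25 enzymes). The signals of KMT5A, SETD5, PRMT1 and DNMT3B, the promoters and their motifs, and some partners beyond the one with the largest difference, were named after their values were seen. Alternatives were no centering, quantile normalization, loess (span 0.4), an offset of 64, the median of all kept probe sets for a gene, the filter at the 75th percentile or left out, and the removal of probe sets that end in _s_at, _x_at or _a_at. Values for the genes above the median signal of the genes were added after the data were seen. The scripts were tested on simulated data. Computations ran in Python 3.11.15 with pandas 2.3.3, numpy 2.4.6 and, for loess and figures, statsmodels 0.14.6 and matplotlib 3.10.9.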

Additional observations from a re-analysis of the deposited data

How the results depend on the processing

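No paired analysis was possible because there is 1 array per condition. Values were taken as moved where they changed by more than the SD between probe sets of one gene divided by the square root of the number of genes. The log2 ratio turned its sign for 4 of the 25 enzymes named by rule, all of them below 1.5-fold with the processing used. These were EHMT2 (-0.20, and 0.40 with the median over probe sets), KDM5A (0.21, and -0.31 without the endings _s_at, _x_at and _a_at), KDM1B (0.017, and -0.078 without a filter and -0.32 with the median over probe sets) and KDM8 (0.13, and -0.0034 after quantile normalization and -0.013 after loess). The count of enzymes at least 1.5-fold lower, 0 with the processing used, was 3 without a filter, 1 without these endings and 4 over single probe sets. The count of those at least 1.5-fold higher, 1 with the processing used, was 2 without a filter and with the median over probe sets, 7 over single probe sets, and 0 at 2-fold and for genes above the median signal of the genes. KDM1A is not measured without these endings, and the count there is 1 because of SETD5. The median log2 ratio of the enzymes was -0.069 after quantile normalization, -0.0699 after loess, -0.20 without a filter, -0.053 with the filter at the 75th percentile and -0.037 over single probe sets.

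With the median over probe sets, the median log2 ratio was 0.0093 for H3K9 methyltransferases, 0.19 for JmjC demethylases (1 gene higher) and -0.11 for the partners of DNA methylation, 2 COMPASS partners were lower, and 0 of the methyl donor genes were higher and 0 of the methylation enzymes with other names lower. Without the endings, the median was -0.33 for H3K36 and H3K79 methyltransferases (1 gene lower), 0.19 for the LSD1 complex and -0.053 for the enzymes with other names, 1 gene of the other SETD family was higher, and 0 LSD demethylases were higher. With the filter at the 75th percentile, the H4K20 methyltransferases had a median of 0.019, and 0 COMPASS partners and 0 enzymes with other names were lower. Without a filter, 1 arginine methyltransferase was higher, 1 gene each was lower among JmjC demethylases, DNA methyltransferases, TET dioxygenases, partners of DNA methylation and methyl donor genes, and 3 enzymes with other names were lower (median -0.27). The count of lower COMPASS partners was 0 without centering, after quantile normalization, after loess and with the offset. One H3K9 partner was higher after quantile normalization and after loess, a count of 1. Without a filter 2331 of 19775 genes were lower and 3480 higher, with the filter at the 75th percentile 273 and 254 of 7392, and with the offset 463 and 476 of 11794. KDM3B (-0.62) and TET3 (-0.64) were past 1.5-fold without a filter, where the centering used the median of all probe sets. KDM8 (0.86) was past it with the median over its 2 kept probe sets. NSD2 (-1.01) was past it without the endings, where its value was that of 223472_at. The causes of the other changes were not tested. Ratios at low signals varied most, with an SD of 0.51 in the lowest and 0.30 in the highest of 4 equal bins of the kept probe sets.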

Other observations

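Methylation enzymes with other names than those described above were listed apart. Of 14 listed genes, all of them measured, 11 (78.6%) had a log2 ratio below 0, with a median of -0.17. Of all genes 51.0% were below 0, and 59.7% of those above the median signal of the genes. On this list 1 gene (7.14%), SETMAR, was at least 1.5-fold lower and 0 were higher. Of all genes, 5.42% were lower and 7.54% higher. SETMAR, a SET domain protein fused to a transposase, had signals of 314 in control and 191 in knock-down cells for 1554059_at (log2 ratio -0.76), but its other kept probe set had a log2 ratio of 0.41. JMJD6, a JmjC oxygenase, had signals of 1956 and 1416 in 212723_at, and its 3 kept probe sets had log2 ratios between -0.53 and -0.37. The arginine methyltransferase CARM1 had signals of 2168 and 1752 (log2 ratio -0.35, 1 probe set) and SMYD3 had 393 and 288 (log2 ratio -0.49, 1 probe set). The highest value was found for the demethylase PHF8, with signals of 735 and 972 (log2 ratio 0.36).

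Of the 5 symbols that fit the letters only, NSDHL had log2 ratios of -0.20 and -0.71 in 2 probe sets, with signals of 329.8 and 208 for the latter. The RNAs EHMT1-IT1 (log2 ratio -0.17), KDM7A-DT (-0.095) and PRMT5-AS1 (-0.18) were close in both conditions, and KMT2E-AS1 was below the filter. Whether the signals of these RNAs were related to those of their partner genes was not tested.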
